A study of Mus musculus with 8 samples.

Results

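The expression of 9 genes that mark neural progenitors and neurons was followed in 8 RNA-seq libraries of mouse pluripotent stem cells. The genes were Tubb3, Map2, Nes, Sox1, Sox3, Sox11, Sox21, Pax6 and Neurod1, taken by name from the gene tables. All 9 had an entry of their own in each of the 8 libraries, out of 21990 named genes or joined groups of genes. The libraries fell into 4 groups of 2. CDGC1 and CDGC6 were 2 independent lines, established from nascent teratoma cells in the testis of newborn Dnd1-deficient mice, with strain 129Sv/Dnd1ter/ter/Oct4deltaPE-GFP and genotype Dnd1ter/ter, at passages 15 to 18. The Dnd1-KD group was embryonic stem (ES) cells of strain 129/Ola, genotype WT and passages 10 to 12, with a knockdown of Dnd1 whose method is not given in the sources used here. The control group was E14tg2a ES cells of the same strain, genotype and passages. Every group grew in DMEM with serum and LIF, the cytokine that holds mouse ES cells in self-renewal. The Dnd1ter allele is a loss-of-function mutation of an RNA-binding protein gene needed for the survival of germ cells, and male mice of the 129 background that carry it develop testicular teratomas. Genotype, strain, passage and tissue of origin all set the derived lines apart from the control, so their effects cannot be told apart.

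In the early embryo the ectoderm becomes neural tissue under SOX factors of group B1 (Sox1, Sox2, Sox3), which hold cells as progenitors. Pax6 then marks progenitors of the forebrain, eye and spinal cord, Nes encodes the intermediate filament nestin of dividing progenitors, and basic helix-loop-helix factors such as Neurod1 and SOX factors of group C such as Sox11 drive neuronal differentiation. Neurons stabilise their microtubules with class III β-tubulin (Tubb3) and the microtubule-associated protein Map2. Some of these genes are active at low levels in pluripotent cells, and Sox2 is one of the core pluripotency factors. Levels here are averages over a culture, in which fewer expressing cells and less RNA per cell cannot be told apart.

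CDGC1 was the group in which these genes moved most. Tubb3, Map2, Sox3, Sox21, Pax6 and Neurod1 were lower in CDGC1 than in control ES cells, and Nes and Sox11 were higher. CDGC6 differed from control in 3 genes, with Sox3 higher and Sox21 and Neurod1 lower. Dnd1-KD cells differed from control in 2 genes, with Sox21 higher and Map2 lower. Levels are in FPKM, the number of fragments scaled to transcript length and to sequencing depth, a unit that allows levels of different genes to be compared. Differences are on the scale of log2(FPKM + 1) and were tested with limma over 11890 genes or groups that reached 1 FPKM in at least 2 libraries, with Benjamini-Hochberg adjustment and a threshold of 0.05. Adding 1 FPKM understates the fold change of genes with low levels. Of the 9 genes, 8 passed that filter and Sox1 did not.

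In CDGC1 against control 2 of the 8 tested genes passed the threshold as higher and 6 as lower, where 50.4% of everything tested was called, 23.5% as higher and 26.9% as lower. In CDGC6 against control 1 was higher and 2 were lower, and 18.4% of everything tested was called, 8.31% as higher and 10.1% as lower. In Dnd1-KD against control 1 was higher and 1 lower, with 36.1% of everything tested called, 20.6% as higher and 15.5% as lower. Between the derived lines, CDGC1 against CDGC6, 2 were higher and 6 lower, and 47.0% of everything tested was called, 23.0% as higher and 24.0% as lower. These shares are also the background for the counts of the wider lists below. The median difference of the 8 genes was −1.15 in CDGC1 against control, beside −0.03 over everything tested. The corresponding medians were −0.12 beside −0.01 in CDGC6 and 0.09 beside 0.02 in Dnd1-KD. The libraries did not overlap for 9 of the 9 genes in CDGC1 against control (78.7% of everything tested), for 8 in CDGC6 against control (71.3%), for 6 in Dnd1-KD against control (79.5%) and for 9 in CDGC1 against CDGC6 (72.8%). The 3 comparisons with control share its 2 libraries. Whether the 2 libraries of a group stem from separate cultures is not stated. The p-values rest on the variation between the 2 libraries of a group, pooled over the 4 groups and drawn toward that of genes of like level. Part or all of that variation may be technical.

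**Figure D1:**
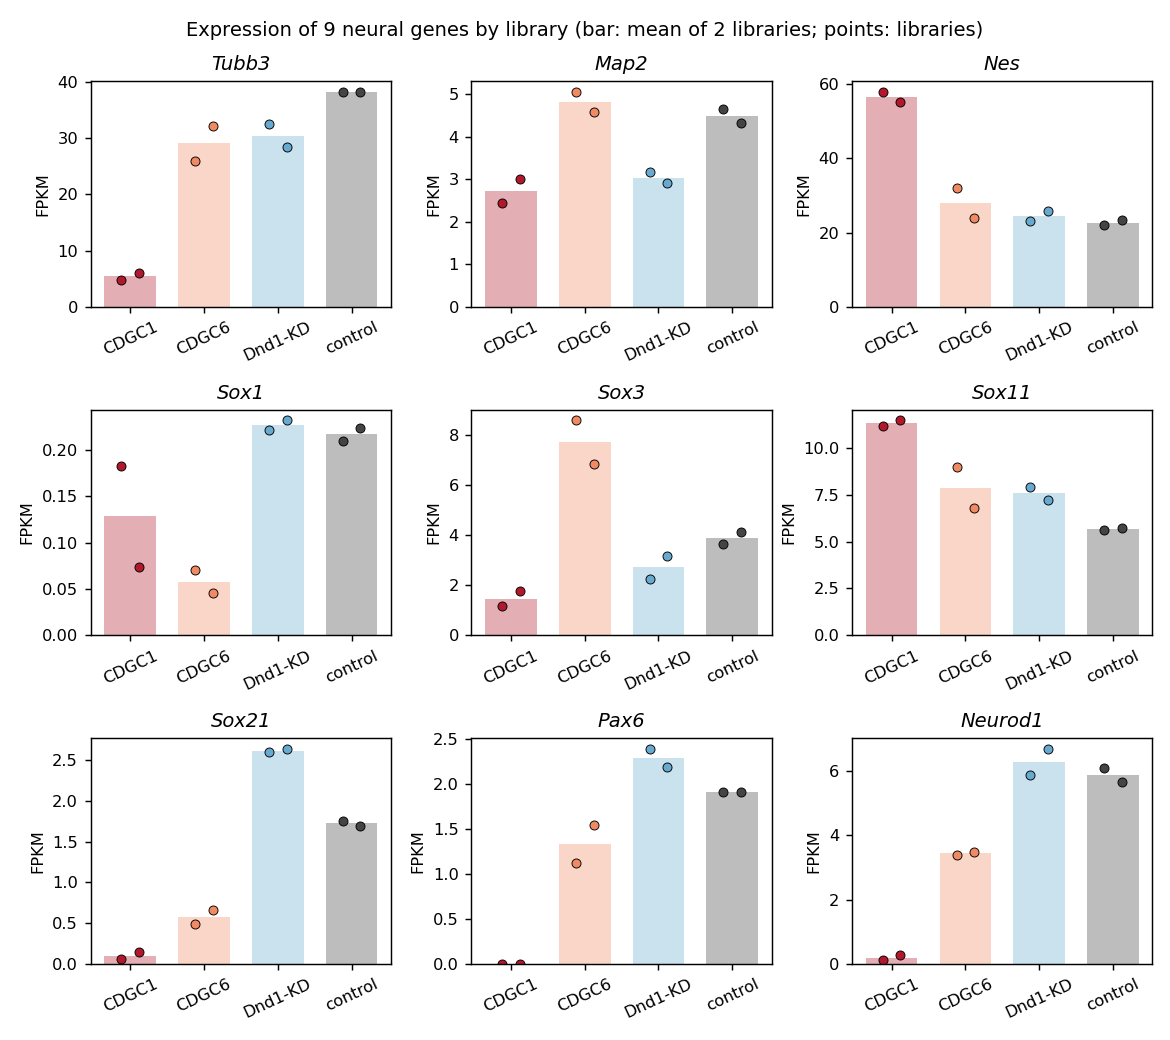
FPKM of the 9 genes in each of the 8 libraries, with 1 point per library and a bar at the mean of each group of 2. In CDGC1, Tubb3 stood at 4.77 and 6.06 FPKM and Neurod1 at 0.123 and 0.272 FPKM, below the other 3 groups, and Nes stood at 57.9 and 55.2 FPKM, above them.

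The promoters of 4 genes are printed because they are the largest falls (Tubb3, Neurod1) and the 2 rises (Nes, Sox11) of CDGC1 against control. This ranking is on the log2(FPKM + 1) scale, among those of the 9 genes detected in every library. As a ratio of FPKM, Sox21 fell further than Tubb3, to 5.81% of control against 14.2%. Each is the 250 bases before the transcription start in RefSeq (GRCm38.p6), 5′ to 3′ on the gene's strand. Capitals mark the GC box GGGCGG, the CCAAT box CCAAT and the E-box CAGCTG, each searched on both strands, so that CCGCCC and ATTGG are the same boxes read on the other strand. Tubb3 lies at chr8:123411303-123411552 on the plus strand, Neurod1 at chr2:79456637-79456886 on the minus strand, Nes at chr3:87970843-87971092 on the plus strand and Sox11 at chr12:27342719-27342968 on the minus strand.
Tubb3: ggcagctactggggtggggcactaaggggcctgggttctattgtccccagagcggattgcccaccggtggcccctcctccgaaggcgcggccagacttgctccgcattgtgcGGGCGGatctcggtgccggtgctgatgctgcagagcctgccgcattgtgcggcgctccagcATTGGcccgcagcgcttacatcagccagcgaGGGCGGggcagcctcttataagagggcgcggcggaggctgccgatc
Neurod1: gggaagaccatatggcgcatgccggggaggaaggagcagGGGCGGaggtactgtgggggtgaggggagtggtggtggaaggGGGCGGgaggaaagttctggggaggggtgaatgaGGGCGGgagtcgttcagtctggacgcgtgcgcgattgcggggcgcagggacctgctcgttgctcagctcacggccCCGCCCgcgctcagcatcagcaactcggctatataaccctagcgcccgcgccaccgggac
Nes: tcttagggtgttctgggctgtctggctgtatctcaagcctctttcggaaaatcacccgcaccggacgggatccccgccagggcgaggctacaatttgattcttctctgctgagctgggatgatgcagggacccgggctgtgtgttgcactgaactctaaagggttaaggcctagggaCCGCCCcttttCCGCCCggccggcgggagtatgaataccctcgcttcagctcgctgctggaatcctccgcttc
Sox11: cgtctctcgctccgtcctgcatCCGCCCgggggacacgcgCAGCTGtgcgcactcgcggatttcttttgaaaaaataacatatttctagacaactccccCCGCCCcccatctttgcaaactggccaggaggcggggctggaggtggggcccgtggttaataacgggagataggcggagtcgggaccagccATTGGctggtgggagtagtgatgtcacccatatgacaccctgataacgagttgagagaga
The Tubb3 promoter holds 2 GC boxes and 1 CCAAT box, Neurod1 holds 4 GC boxes, Nes 2 GC boxes, and Sox11 holds 2 GC boxes, 1 CCAAT box and 1 CAGCTG. A GC box occurs in 32.9% of the 27025 promoters of this length, a CCAAT box in 34.5% and CAGCTG in 12.8%. GC boxes were thus present in genes that fell and in genes that rose. The 4 promoters are rich in CpG, with 21, 22, 15 and 17 of them in Tubb3, Neurod1, Nes and Sox11, against a median of 6 over all promoters. RefSeq promoters were matched for 8 of the 9 genes, and Sox3 was not matched. The octamer ATGCAAAT, a sequence bound by POU factors such as Oct4, occurs in 1.61% of all promoters and the SOX sequence AACAAAG in 4.99%; neither is in the 4 printed windows, nor is TATAAA (13.0%) or the E-box CAGATG (14.5%).

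Of the 2 genes of the neuronal cytoskeleton, Tubb3 and Map2, Tubb3 changed more in CDGC1. Tubb3 (GRCm38/mm10 chr8:123411564-123422010, plus strand, overlapping the predicted gene Gm20388) encodes the β-tubulin that neurons use and is a common neuronal marker. It had 4.77 and 6.06 FPKM in the CDGC1 libraries, 26.0 and 32.2 in CDGC6, 32.5 and 28.4 in Dnd1-KD, and 38.2 and 38.2 in control. The CDGC1 libraries lay far under all others, CDGC6 and Dnd1-KD overlapped, and both lay under control. In CDGC1 against control Tubb3 fell by 2.62 ± 0.14 (SE) on the log2 scale (adjusted p = 4.85e-05), with a mean of 5.41 ± 0.915 FPKM in CDGC1 and 38.2 ± 0.0110 in control (SD, n = 2 each), 14.2% of the control level. Neither the difference of −0.39 in CDGC6 (adjusted p = 0.110) nor that of −0.32 in Dnd1-KD (adjusted p = 0.127) passed the threshold. In CDGC1 Tubb3 stood above 35.99% of the genes tested, whereas in control it stood above 80.35%.

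Tubb3 was a small part of the β-tubulin RNA in every library. It made up 0.274% and 0.380% of the summed FPKM of the 8 β-tubulin genes in CDGC1, 1.84% and 2.19% in CDGC6, 3.39% and 3.61% in Dnd1-KD, and 2.73% and 2.90% in control. Its share was thus lowest in CDGC1 and highest in Dnd1-KD, where the sum itself was lowest. The sum was 1739 and 1596 FPKM in CDGC1, 1414 and 1474 in CDGC6, 957 and 786 in Dnd1-KD, and 1399.9 and 1320 in control. Tubb6, the class V β-tubulin, rose in CDGC1 to a mean of 219.5 FPKM against 116 in control (log2 difference 0.91 ± 0.11, adjusted p = 0.000933), and Tubb4a rose to 5.94 against 1.20 FPKM (1.59 ± 0.29, adjusted p = 0.00520). Tubb4a was also higher in CDGC6, at 5.01 against 1.20 FPKM (1.44 ± 0.29, adjusted p = 0.0238). In Dnd1-KD 4 of the 7 β-tubulins tested were lower and 0 higher by limma (4 and 0 at an unadjusted p under 0.05), among them Tubb5, a widely expressed β-tubulin, with 373 FPKM in Dnd1-KD against 616 in control (−0.73 ± 0.12, adjusted p = 0.00668) and Tubb4b with 281 against 472 (−0.75 ± 0.13, adjusted p = 0.00870). β-tubulin genes are alike in sequence, and how reads that fit several of them were assigned is not given in the sources used here.

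**Figure D2:**
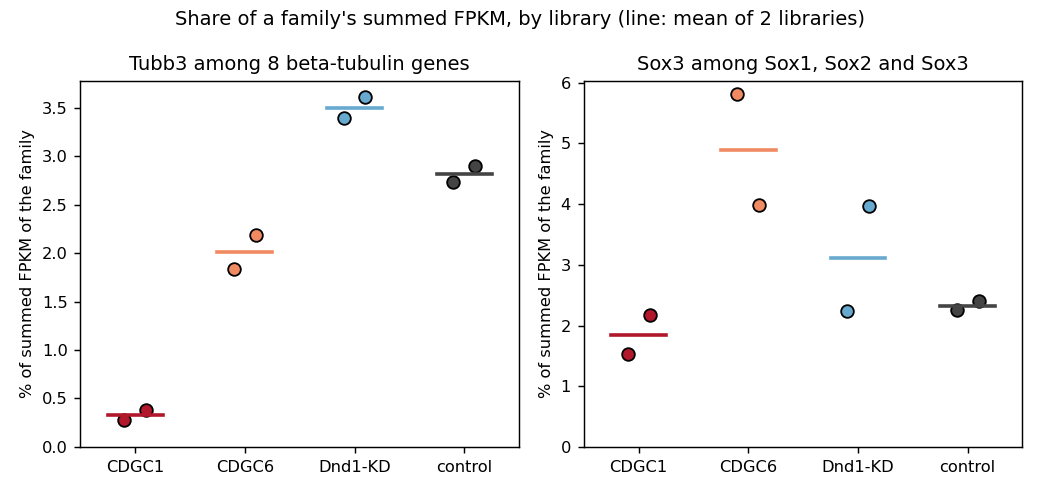
Percent of the summed FPKM of a gene family taken by Tubb3 (of 8 β-tubulins) and by Sox3 (of Sox1, Sox2 and Sox3), with 1 point per library. Tubb3 took 0.274% and 0.380% in the CDGC1 libraries, under every other library, and Sox3 took 5.81% and 3.98% in the CDGC6 libraries.

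Map2 (chr1:66175329-66442583, plus strand) encodes a protein that binds microtubules in dendrites. Its level was 2.44 and 3.005 FPKM in CDGC1, 5.05 and 4.58 in CDGC6, 3.17 and 2.91 in Dnd1-KD, and 4.64 and 4.32 in control. CDGC6 and control overlapped at the top, and Dnd1-KD and CDGC1 overlapped at the bottom. Map2 was lower than control in CDGC1 (−0.56 ± 0.11, adjusted p = 0.00701) and in Dnd1-KD (−0.44 ± 0.11, adjusted p = 0.0260), and differed by 0.09 in CDGC6 (adjusted p = 0.617). The Map2 entry was one assembled by Cufflinks in the CDGC1, CDGC6 and control libraries but not in the Dnd1-KD libraries. In Dnd1-KD against control, the group and the kind of entry therefore cannot be told apart. The Dnd1-KD call was lost when any 1 of the 4 libraries compared was left out, with adjusted p from 0.0615 to 0.148, and the CDGC1 call was lost without the first control library (adjusted p = 0.0540).

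A wider list of 30 genes of the neuronal cytoskeleton and of neuronal RNA-binding proteins, Tubb3 and Map2 included, had 24 genes tested. In CDGC1 against control 5 were higher and 14 lower, with a median of −0.54. Apart from Tubb3 and Map2, Stmn2, a regulator of microtubule assembly in growing axons, had 47.4 and 43.8 FPKM in CDGC1 against 232 and 243 in control (−2.36 ± 0.07, adjusted p = 7.18e-06). The heavy neurofilament gene Nefh was listed at 0 in both CDGC1 libraries against 17.7 and 18.2 FPKM in control, and a 0 in these tables can be a failed estimate. In CDGC6 against control 4 were lower and 0 higher by limma's adjusted p (at an unadjusted p under 0.05, 6 and 3), with Stmn2 at a mean of 149.8 against 238 FPKM (−0.66 ± 0.07, adjusted p = 0.00328) and Nefh at 5.64 against 17.9 (−1.51 ± 0.09, adjusted p = 0.000544). In Dnd1-KD 2 were higher and 10 lower, with a median of −0.25. Stmn2 had 131 FPKM in Dnd1-KD and 238 in control (−0.85 ± 0.07, adjusted p = 0.00114), and Nefh had 10.8 against 17.9 FPKM (−0.68 ± 0.09, adjusted p = 0.00349).

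Nes moved the other way. Nes (chr3:87971093-87980451, plus strand) had 57.9 and 55.2 FPKM in CDGC1, 32.1 and 23.8 in CDGC6, 23.1 and 25.9 in Dnd1-KD, and 21.99 and 23.3 in control. The CDGC1 libraries stood above all others, while CDGC6 overlapped with Dnd1-KD and Dnd1-KD with control. In CDGC1 against control Nes rose by 1.28 ± 0.14 on the log2 scale (adjusted p = 0.000705), with means of 56.5 ± 1.91 FPKM in CDGC1 and 22.7 ± 0.948 in control (SD, n = 2 each), 249% of the control level. The differences in CDGC6 (0.28, adjusted p = 0.218) and Dnd1-KD (0.11, adjusted p = 0.602) did not pass the threshold. At 56.5 FPKM in CDGC1, Nes was the highest of the 9 genes there, above 86.2% of the genes tested. Nestin is also made by other dividing cells, and its RNA was present in all 8 libraries. Summed markers of fibroblasts stood well above control in both derived lines, although Nes passed the threshold only in CDGC1. Their 6 genes with an entry of their own summed to 29.9 to 32.8 FPKM in CDGC1, 22.7 to 30.4 in CDGC6, 9.44 to 9.81 in Dnd1-KD and 6.30 to 6.91 in control. Markers of mesoderm (7 genes) summed to 134.8 to 168.9 FPKM in CDGC1, 55.0 to 90.1 in CDGC6, 13.4 to 13.8 in Dnd1-KD and 26.1 to 31.9 in control. T and Eomes carried most of the CDGC1 sum, and T (1.63 and 1.79 FPKM against 18.1 and 23.7 in control) the lower Dnd1-KD sum. Of the 5 tested, 3 were called higher and 1 lower in CDGC1, 2 and 1 in CDGC6, and 2 and 1 in Dnd1-KD. Hand1 had 0.104 and 0.117 FPKM in CDGC1, 6.28 and 5.30 in Dnd1-KD, and 2.45 and 1.96 in control. The part of these cells or genes in the level of Nes was not tested.

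The SOX genes did not move as a block. Of group B1, Sox1, an early marker of neural progenitors, was close to 0 in all libraries, with 0.183 and 0.0739 FPKM in CDGC1, 0.0707 and 0.0455 in CDGC6, 0.221 and 0.232 in Dnd1-KD, and 0.210 and 0.224 in control. The deposited intervals imply between 6.00 and 50.3 fragments per library for Sox1, which was under the filter and was not tested. Its locus (chr8:12395519-12399555, plus strand) lies inside a longer gene listed as Gm5607, at 0.209 to 0.553 FPKM, and the library kit does not mark strand.

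Sox3 (chrX:60891366-60893430, minus strand), which acts with Sox1 and Sox2 to keep progenitors undifferentiated, was the gene in which the derived lines departed from control in opposite directions. It had 1.17 and 1.77 FPKM in CDGC1, 8.57 and 6.82 in CDGC6, 2.26 and 3.18 in Dnd1-KD, and 3.65 and 4.12 in control. No groups overlapped, and the order was CDGC6, control, Dnd1-KD and CDGC1. Sox3 was lower in CDGC1 than in control (−0.99 ± 0.19, adjusted p = 0.00577) and higher in CDGC6 than in control (0.83 ± 0.19, adjusted p = 0.0325). The fall of 0.40 in Dnd1-KD did not pass the threshold (adjusted p = 0.142). Between the lines the difference was −1.82 ± 0.19 (CDGC1 against CDGC6, adjusted p = 0.000639). The CDGC6 call was lost with any 1 of the CDGC6 or control libraries left out (adjusted p from 0.0582 to 0.163), with a pseudocount of 0.1 (adjusted p = 0.0518) and when no low genes were filtered out (adjusted p = 0.0734).

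Nearly all SOX B1 RNA was Sox2. Sox2 had 75.1 and 79.6 FPKM in CDGC1, 139 and 165 in CDGC6, 98.4 and 76.8 in Dnd1-KD, and 158 and 167 in control. It was lower than control in CDGC1 (−1.06 ± 0.14, adjusted p = 0.00126) and in Dnd1-KD (−0.90 ± 0.14, adjusted p = 0.00582). Sox3 made up 1.53% and 2.17% of the summed FPKM of Sox1, Sox2 and Sox3 in CDGC1, 5.81% and 3.98% in CDGC6, 2.24% and 3.97% in Dnd1-KD, and 2.26% and 2.40% in control. The CDGC6 libraries had the highest shares, although 1 of the Dnd1-KD libraries came close to the lower of them.

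Sox21 (chr14:118233234-118237030, minus strand), a group B2 factor that counteracts group B1 and promotes neuronal differentiation in chick and mouse, was lower in both derived lines and higher in Dnd1-KD. Its level was 0.0587 and 0.142 FPKM in CDGC1, 0.486 and 0.657 in CDGC6, 2.60 and 2.64 in Dnd1-KD, and 1.75 and 1.70 in control. No groups overlapped. The difference from control was −1.31 ± 0.09 in CDGC1 (adjusted p = 0.000118), −0.80 ± 0.09 in CDGC6 (adjusted p = 0.00477) and 0.41 ± 0.09 in Dnd1-KD (adjusted p = 0.0185). The Dnd1-KD call was lost without any 1 of the 4 libraries compared (adjusted p from 0.0516 to 0.106). GENCODE places an antisense gene, Gm4675, over Sox21, and the tables list an entry LOC105245869 there. That entry had 0 and 0.0898 FPKM in CDGC1, 0.445 and 0.513 in CDGC6, 2.12 and 2.50 in Dnd1-KD, and 1.81 and 1.92 in control. Without strand, reads of Sox21 and of this entry cannot be told apart where they overlap, so the values of Sox21 are uncertain.

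Sox11 (chr12:27334268-27342718, minus strand), a group C factor that activates neuronal genes in differentiating neurons, was highest in CDGC1. It had 11.2 and 11.5 FPKM in CDGC1, 8.97 and 6.78 in CDGC6, 7.93 and 7.21 in Dnd1-KD, and 5.62 and 5.71 in control. CDGC6 and Dnd1-KD overlapped, and control lay under every other library. The difference from control was 0.89 ± 0.13 in CDGC1 (adjusted p = 0.00214), 0.40 ± 0.13 in CDGC6 (adjusted p = 0.0798) and 0.36 ± 0.13 in Dnd1-KD (adjusted p = 0.0748). Over the 8 SOX genes of groups B and C, 6 were tested, with 2 higher and 3 lower in CDGC1, 2 higher and 1 lower in CDGC6, and 2 higher and 2 lower in Dnd1-KD. Sox12 could be read only in an entry joined with Zcchc3, which rose in CDGC1 (39.3 against 20.7 FPKM in control, 0.89 ± 0.08, adjusted p = 0.000233) and in CDGC6 (42.2 against 20.7, 0.99 ± 0.08, adjusted p = 0.00133) and fell in Dnd1-KD (13.7 against 20.7, −0.56 ± 0.08, adjusted p = 0.00391).

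Pax6 (chr2:105668896-105698410, plus strand), a paired-box factor of neural and eye progenitors, was listed at 0 in both CDGC1 libraries. It had 1.12 and 1.55 FPKM in CDGC6, 2.39 and 2.18 in Dnd1-KD, and 1.91 and 1.91 in control. No groups overlapped, and Dnd1-KD was highest. The fitted difference was −1.54 ± 0.11 in CDGC1 against control (adjusted p = 0.000120), which depends on the pseudocount because a value of 0 can be a failed estimate in these tables. The differences of −0.33 in CDGC6 (adjusted p = 0.0872) and 0.18 in Dnd1-KD (adjusted p = 0.254) did not pass the threshold. The end of Pax6 is overlapped by Elp4, a gene of an RNA-modifying complex, which had 3.56 and 3.08 FPKM in CDGC1, 3.13 and 3.20 in CDGC6, 2.63 and 2.51 in Dnd1-KD, and 2.81 and 2.85 in control.

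Of the 28 neural plate and progenitor factors listed, Pax6 and Nes included, 14 were tested. In CDGC1 against control 8 were higher and 3 lower. Of these 8, 2 (En1 and Fabp7) reached 1 FPKM in no group but CDGC1, so they entered the test only through the group in which they were high, and their call is not counted as support. En1, a homeobox factor of the midbrain and hindbrain, had 7.16 and 8.31 FPKM in CDGC1 against 0.753 and 0.796 in control. Its paralogue En2 went the other way, with 0.0949 and 0.0935 FPKM in CDGC1 against 2.41 and 2.52 in control (−1.66 ± 0.08, adjusted p = 3.04e-05). In CDGC6 3 were higher and 3 lower, among them Zic5, a zinc finger gene of the neural plate, at a mean of 12.7 FPKM against 4.25 in control (1.38 ± 0.09, adjusted p = 0.00103), and En2 at 0.927 against 2.47 (−0.85 ± 0.08, adjusted p = 0.00251). In Dnd1-KD 4 were higher and 2 lower, and of these 4, 2 (Pax3 and Zfp521) entered the test only through the Dnd1-KD libraries. Pax3, a factor of the dorsal neural tube and neural crest, had a mean of 1.24 FPKM in Dnd1-KD against 0.163 in control. Cdh2, N-cadherin, had 20.8 FPKM in Dnd1-KD against 8.49 in control (1.20 ± 0.17, adjusted p = 0.00506).

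**Figure D3:**
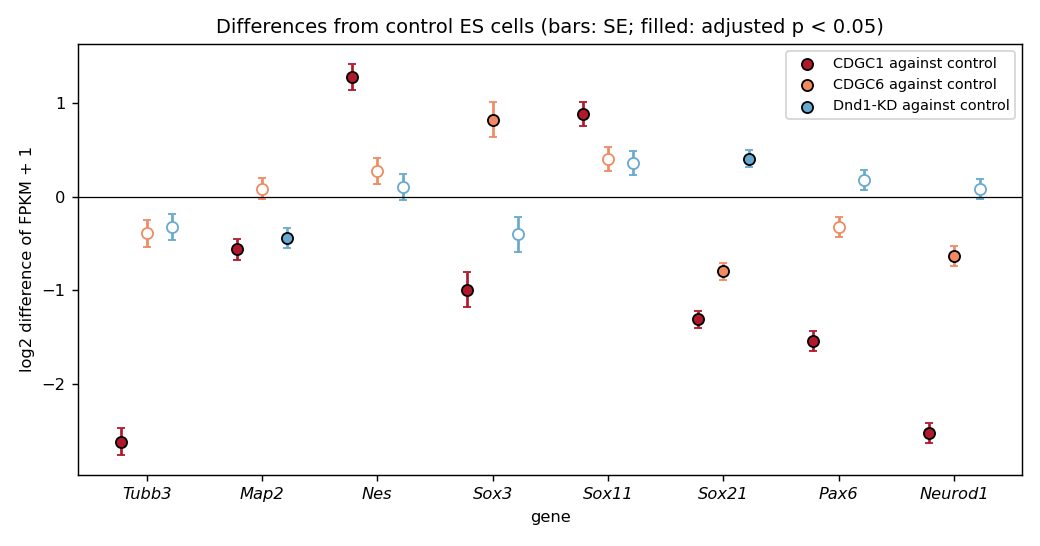
Difference in log2(FPKM + 1) from control for the 8 tested genes in CDGC1, CDGC6 and Dnd1-KD, with bars of 1 standard error and filled points where the adjusted p was under 0.05. All 8 CDGC1 points are filled, from −2.62 (Tubb3) to 1.28 (Nes), against 3 CDGC6 points and 2 Dnd1-KD points.

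Neurod1 had the largest ratio between CDGC1 and control among those of the 9 genes above 0 in every library. Neurod1 (chr2:79452641-79456636, minus strand) is a transcription factor of differentiating neurons and also of the endocrine pancreas. It had 0.123 and 0.272 FPKM in CDGC1, 3.38 and 3.49 in CDGC6, 5.87 and 6.69 in Dnd1-KD, and 6.09 and 5.66 in control. Dnd1-KD and control overlapped, CDGC6 lay under both, and CDGC1 lay under CDGC6. The difference from control was −2.52 ± 0.11 in CDGC1 (adjusted p = 1.91e-05) and −0.63 ± 0.11 in CDGC6 (adjusted p = 0.0143), with means of 0.197 ± 0.106 FPKM in CDGC1, 3.44 ± 0.0828 in CDGC6 and 5.88 ± 0.306 in control (SD, n = 2 each). CDGC1 thus held 3.36% of the control level and CDGC6 58.5%. In Dnd1-KD the difference was 0.08 (adjusted p = 0.594). The CDGC6 call was lost without either control library (adjusted p = 0.108 and 0.0798), without the first CDGC6 library (0.0503) and with a pseudocount of 0.1 (0.0860). The deposited interval of the second CDGC6 library was wide, at 0 to 11.2 FPKM. GENCODE places Cerkl over Neurod1 on the same strand and Gm26755 on the other. An unnamed entry overlapped Neurod1 in the first CDGC6 library (1.16 FPKM) and in the second control library (2.21 FPKM). The part of these entries in the level of Neurod1 was not tested.

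Neurod1 was the one NEUROD gene present at more than a trace, since Neurod2, Neurod4 and Neurod6 stayed at or under 0.0198 FPKM in all 8 libraries. Of 24 proneural and neurogenic factors listed, 6 were tested, Neurod1 among them, and in CDGC1 against control 1 was higher and 5 were lower (median −0.94). Pou4f1, a homeobox factor of sensory neurons, had 0.235 and 0.477 FPKM in CDGC1, 1.01 and 1.05 in CDGC6, 2.99 and 1.60 in Dnd1-KD, and 3.15 and 3.06 in control. It was lower than control in CDGC1 (−1.60 ± 0.21, adjusted p = 0.00124) and in CDGC6 (−1.02 ± 0.21, adjusted p = 0.0239). Insm1, a zinc finger factor of newborn neurons and endocrine cells, had 0.336 FPKM in CDGC1 against 1.58 in control (−0.95 ± 0.12, adjusted p = 0.00112). In CDGC6 2 were lower and 0 higher by limma's adjusted p, and 2 and 0 at an unadjusted p under 0.05. In Dnd1-KD 1 was lower, Hes6, with 14.9 FPKM against 20.4 in control (−0.43 ± 0.11, adjusted p = 0.0300), and 0 were higher, also at an unadjusted p under 0.05.

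Regulators that hold neuronal genes back were read alongside. REST represses neuronal genes in non-neuronal cells, and Notch signalling keeps progenitors from differentiating. Rest had 21.5 and 22.3 FPKM in CDGC1, 43.2 and 39.7 in CDGC6, 30.8 and 27.9 in Dnd1-KD, and 42.3 and 39.4 in control, and was lower than control in CDGC1 (−0.87 ± 0.08, adjusted p = 0.000382) and in Dnd1-KD (−0.46 ± 0.08, adjusted p = 0.00913). Of the 11 genes of the REST complex, 2 were higher and 1 was lower in CDGC1, 1 was lower in CDGC6, and 1 was higher and 4 were lower in Dnd1-KD. Beside these counts, 50.4% of everything tested was called in CDGC1, 18.4% in CDGC6 and 36.1% in Dnd1-KD. Most of the 11 were thus not called in CDGC1. Ctdsp1, a phosphatase recruited by REST, rose in CDGC1 (23.8 against 15.4 FPKM in control, 0.60 ± 0.11, adjusted p = 0.00560). Rcor1, a corepressor, fell in CDGC6 (7.95 against 11.9 FPKM, −0.53 ± 0.12, adjusted p = 0.0311). In Dnd1-KD its relative Rcor2 fell (38.7 against 69.0 FPKM, −0.83 ± 0.13, adjusted p = 0.00682).

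Of 19 Notch pathway genes 15 were tested, with 4 higher and 4 lower in CDGC1, 1 higher and 1 lower in CDGC6, and 5 higher and 2 lower in Dnd1-KD. Over everything tested the shares called were 50.4% in CDGC1, 18.4% in CDGC6 and 36.1% in Dnd1-KD, so the 8 of 15 in CDGC1 are near the background. In Dnd1-KD the split was 4 higher and 4 lower under quantile normalization, and 4 higher and 3 lower under median-ratio scaling. Hes1, the Notch target that represses proneural genes, had 29.2 FPKM in CDGC1 against 11.2 in control (1.31 ± 0.11, adjusted p = 0.000274) and 15.9 in CDGC6 against 11.2 in control (0.47 ± 0.11, adjusted p = 0.0403). Rbpj, the DNA-binding partner of Notch, had 20.6 FPKM in CDGC1 against 63.4 in control (−1.58 ± 0.10, adjusted p = 7.82e-05) and 40.3 in CDGC6 against 63.4 in control (−0.64 ± 0.10, adjusted p = 0.0114). In Dnd1-KD the receptor gene Notch4 was lower (0.651 against 2.32 FPKM, −1.01 ± 0.13, adjusted p = 0.00375), and Notch1, in an entry joined with Sec16a, was higher (37.4 against 24.9 FPKM, 0.56 ± 0.06, adjusted p = 0.00263).

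**Figure D4:**
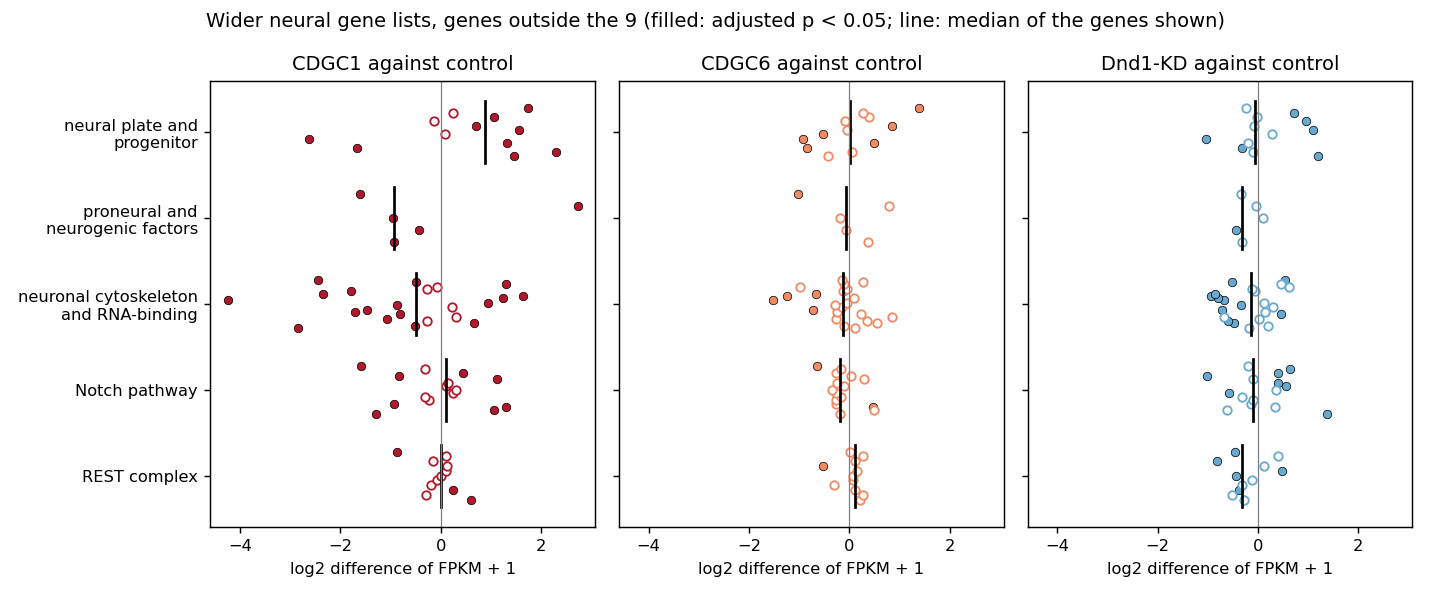
Difference in log2(FPKM + 1) from control for the tested genes of the wider lists, other than the 9 genes themselves, in CDGC1, CDGC6 and Dnd1-KD. The lists shown are neural plate and progenitor, proneural and neurogenic, neuronal cytoskeleton and RNA-binding, Notch pathway and REST complex. A line stands at the median of the genes shown. The neuronal cytoskeleton genes of CDGC1 lie mostly under 0 (12 of 22 called lower, 5 higher), and the neural plate factors of CDGC1 lie mostly above it (7 of 12 called higher, 2 lower; of the 7, 2 entered the test only through CDGC1).

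CDGC1 and CDGC6 differed in all 8 tested genes, beside 47.0% of everything tested, although 2 of these calls depended on the processing. The difference of Sox21 changed sign under quantile normalization (0.0279, adjusted p = 0.841), and the call of Sox11 was lost under 7 alternatives, 5 of them a single library left out (both CDGC1 libraries, the second CDGC6 library and both control libraries; adjusted p from 0.0502 to 0.0920 over the 7). The differences, CDGC1 minus CDGC6, were −2.23 for Tubb3 (adjusted p = 0.000113), −1.89 for Neurod1 (7.40e-05), −1.21 for Pax6 (0.000386), −0.65 for Map2 (0.00449) and −0.51 for Sox21 (0.00542). Nes was higher in CDGC1 by 1.01 (adjusted p = 0.00218) and Sox11 by 0.48 (0.0245). Both lines carry the same strain and genotype labels and the same range of passages, so these differences stand between lines of like label. Of the wider lists, CDGC1 against CDGC6 had 4 higher and 15 lower of the 24 cytoskeletal and RNA-binding genes, 8 higher and 3 lower of the 14 neural plate and progenitor factors, and 1 higher and 4 lower of the 6 proneural factors. Stmn2 had a mean of 45.6 FPKM in CDGC1 and 149.8 in CDGC6 (−1.69 ± 0.07, adjusted p = 2.27e-05), and Cdh2 had 25.2 in CDGC1 and 6.08 in CDGC6 (1.88 ± 0.17, adjusted p = 0.000444). En1 and Fabp7, within the 8 higher, entered the test only through CDGC1. Ebf1, a helix-loop-helix factor of differentiating neurons and B cells, had 0.133 FPKM in CDGC1 and 1.82 in CDGC6 (−1.30 ± 0.22, adjusted p = 0.00433). Under quantile normalization the proneural list had 1 higher and 2 lower, with the calls of Ebf1 (adjusted p = 0.0503) and Insm1 (adjusted p = 0.121) lost.

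The derived lines also differed in pluripotency genes: Zfp42, a marker of naive ES cells, had 0.0220 and 0 FPKM in CDGC1 and 223 and 304 in CDGC6, against 335 and 352 in control. The 8 pluripotency markers summed to 1851 to 1945 FPKM in CDGC1, 2463 to 2815 in CDGC6, 1057 to 1295 in Dnd1-KD and 2193 to 2202 in control, so the labelled pluripotent identity had its markers in every library apart from Zfp42 in CDGC1. In Dnd1-KD 8 of the 8 were lower than control. Under quantile normalization 7 were called lower, with the call of Sall4 lost (limma, adjusted p = 0.0547).

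Other cell types were read by their markers. The glial gene Gfap was nearly absent (at most 0.385 FPKM), and 7 glial markers summed to 12.5 to 12.6 FPKM in CDGC1, 10.4 to 11.8 in CDGC6, 7.998 to 8.73 in Dnd1-KD and 7.42 to 8.97 in control. The 8 neural crest markers summed to 10.8 to 13.2 FPKM in CDGC1, 14.1 to 17.8 in CDGC6, 11.8 to 13.9 in Dnd1-KD and 16.5 to 18.0 in control, with Sox10 at or under 0.463. Foxd3, which ES cells also express, carried much of that sum, with 5.69 and 10.2 FPKM in CDGC1, 11.9 and 15.3 in CDGC6, 4.45 and 3.36 in Dnd1-KD, and 12.5 and 13.5 in control. In Dnd1-KD against control Foxd3 was the 1 crest marker called lower, and Pax3 and Snai2, which entered the test only through Dnd1-KD, were higher (1.24 against 0.163 FPKM and 1.26 against 0.520 FPKM). Endocrine pancreas markers (7 genes) summed to 2.62 to 2.98 FPKM in CDGC1, 4.89 to 6.32 in CDGC6, 4.98 to 6.03 in Dnd1-KD and 4.19 to 4.50 in control, and Ins1, Ins2 and Gcg were listed at 0 in all 8 libraries. Endoderm markers (7 genes) summed to 9.25 to 42.8 FPKM in CDGC1, 3.68 to 7.91 in CDGC6, 4.70 to 5.97 in Dnd1-KD and 1.76 in both control libraries. Foxa2 carried most of the CDGC1 sum, with 8.15 and 38.6 FPKM. Of the 3 endoderm markers tested, 1 was called higher and 1 lower in CDGC1 against control. Gata4 had 0.176 and 0.258 FPKM in CDGC1 against 0.724 and 0.692 in control. Somatic cells of the testis (6 markers) gave 5.17 to 7.89 FPKM in CDGC1, 3.33 to 3.43 in CDGC6, 3.62 to 3.95 in Dnd1-KD and 3.55 to 4.16 in control, and leukocytes (4 markers) at most 1.13 FPKM. Their part in the levels of the 9 genes was not tested. Dcx, a marker of migrating young neurons, had 0.435 and 0.302 FPKM in CDGC1 and 0.0551 to 0.0768 in the other 6 libraries. It was under the filter and was not tested.

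For the 6 genes whose group means spanned at least 1 on the log2 scale, the 3 genes with the closest profiles over the 8 libraries were sought. Likeness was the root mean square distance between log2(FPKM + 1) profiles, each centred on its own mean, among 10001 candidate genes. The gene closest to Tubb3 was Rnf125 (distance 0.0598), an E3 ubiquitin ligase gene, then Pkp3 (0.115) and Alox5ap (0.122). Rnf125 had 0.435 and 0.652 FPKM in CDGC1, 5.39 and 6.65 in CDGC6, 6.27 and 5.43 in Dnd1-KD, and 8.31 and 8.07 in control. For Neurod1 the closest were Icam1 (0.0996), an adhesion molecule, Olfr613 (0.131) and Jade1 (0.138), and for Pax6 they were Kcnq1ot1 (0.0948), Atp1b1 (0.0953) and Rab29 (0.09995). For Nes they were Mettl9 (0.0831), Rcbtb2 (0.0908) and Trim30a (0.0911), for Sox21 Zfp750 (0.106), Esx1 (0.121) and Abhd3 (0.132), and for Sox3 Syce2, Slc4a5 (0.182 each) and Myb (0.194). Map2 and Sox11 spanned less than that.

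Dnd1, the gene that defines the Dnd1-KD group, could not be read. It was listed at 0 in 6 libraries and was joined with the neighbouring gene Hars in the 2 Dnd1-KD libraries, so the tables give no check of the knockdown. The tables hold no counts, and the deposited intervals imply 10.7 M to 18.0 M fragments per library.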

How the data were processed

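RNA from 8 mouse cell cultures was sequenced from TruSeq RNA v2 libraries on an Illumina HiSeq2500, per the labels' protocols. The deposited gene tables give FPKM with an interval for each gene, in the Cufflinks format per the file headers. TopHat2, Bowtie, Cufflinks, Cuffdiff and the mm10 build are named in the submitters' processing notes, and their versions and settings are not given in the sources used here. The tables hold no raw counts, and the depth was read from the intervals, taking the distance from the value to each bound as 2 SD. Small RNA genes were left out, as were unnamed entries, to which 76.8% to 85.6% of all FPKM belonged. Symbols joined in any library were made 1 unit with their FPKM summed (925 of 21990 units), and 26 names turned into dates by a spreadsheet were read back. The submitters' FPKM were not rescaled. Units that reached 1 FPKM in 2 or more libraries (11890, of which 635 have a 0 in some library) were fitted as log2(FPKM + 1) with limma 3.58.1 in R 4.3.3, with 1 mean per group over all 8 libraries, an intensity trend in the variance and Benjamini-Hochberg adjustment. The fit was tested on simulated data. Loci come from GENCODE vM21 and the deposited coordinates, promoters from RefSeq, and both use GRCm38. The 9 genes and the lists were chosen with earlier results of these data known. Named from each list were up to 2 genes with the smallest p among those past the threshold in a comparison, and some of these are not reported here. As like genes the 3 closest were named for each gene that spans at least 1 on the log2 scale. Alternatives were pseudocounts of 0.1 and 5, no filter or one of 5 FPKM, quantile normalization, median-ratio scaling, fitting only the compared groups, the replicate block, the highest entry per gene and each library left out.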

Additional observations from a re-analysis of the deposited data

Results flagged for a closer look

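The effects of CDGC1 and CDGC6 against the same control differed in all 8 tested genes, by limma's test of the difference between the lines. Over everything tested, 47.0% was called between the lines, and the libraries of the lines did not overlap for 72.8%. On the log2(FPKM + 1) scale, CDGC1 minus CDGC6 was −2.23 for Tubb3, −0.65 for Map2, 1.01 for Nes, −1.82 for Sox3, 0.48 for Sox11, −0.51 for Sox21, −1.21 for Pax6 and −1.89 for Neurod1, and for each of these genes both CDGC1 libraries lay on the same side of both CDGC6 libraries. The adjusted p ranged from 7.40e-05 (Neurod1) to 0.0245 (Sox11). Pax6 was listed at 0 in both CDGC1 libraries. The Sox21 difference changed sign under quantile normalization (0.0279, adjusted p = 0.841), and the Sox11 call was lost under 7 alternatives, 5 of them a single library left out.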

How the results depend on the processing

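Over 564 refits of single genes under the alternatives, 523 kept the side of the threshold, 31 lost the call, 9 gained one and 1 reversed. Direction was compared only for genes called in the main fit. Among uncalled genes it could change, as for Neurod1 in Dnd1-KD against control, which ranged from −0.0319 to 0.163. The reversal was Sox21 in CDGC1 against CDGC6 under quantile normalization (0.0279, adjusted p = 0.841, over a range of 0.00242 to 0.841). Of the 8 tested genes, 8 were called in CDGC1 against control and 8 in CDGC1 against CDGC6; each became 5 of 5 tested with a filter of 5 FPKM and 7 to 8 with 1 library left out. The call of Sox11 in CDGC1 against CDGC6 was lost under 7 alternatives (adjusted p from 0.0502 to 0.0920). In CDGC6 against control 3 were called, against 1 with a pseudocount of 0.1 and 1 to 5 with 1 library left out. In Dnd1-KD against control 2 were called, against 1 with a pseudocount of 0.1 and 4 when only those 2 groups were fitted. With a filter of 5 FPKM it was 0 (limma, 1 at an unadjusted p under 0.05), but the 2 called genes, Map2 and Sox21, were then not tested. Both calls depended on single libraries, as given above. With the 2 control libraries averaged as 1 sample, an alternative chosen after seeing the data, 1 was called in CDGC6 and 0 in Dnd1-KD (2 at an unadjusted p under 0.05).

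Over everything tested, leaving out 1 library gave 408 to 2882 calls in CDGC6 against control, beside 2192, and 1349 to 4896 in Dnd1-KD against control, beside 4293. The lowest values came without a control library: 408 and 479 in CDGC6, and 1349 and 1620 in Dnd1-KD. Without either CDGC6 library the count was 1410 and 1315, and without the second Dnd1-KD library 1931. With the control libraries averaged it was 420 in CDGC6 and 1449 in Dnd1-KD. These leave-one-out fits assume that a lone library varies like the other groups. In CDGC1 against control the range was 4075 to 6043 and in CDGC1 against CDGC6 4454 to 5699.

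The deviations of equally numbered libraries correlated between −0.0392 and 0.124 across genes. With 1 such deviation per group, this cannot show whether replicate numbers pair the libraries. The highest value was between control and Dnd1-KD. Their first libraries also had more implied fragments (18.0 M and 17.7 M) than their second (12.6 M and 10.7 M). With the replicate number as a block the calls among the 8 genes were 8 in CDGC1 against control, 3 in CDGC6, 2 in Dnd1-KD and 8 in CDGC1 against CDGC6, as without it. Quantile normalization and median-ratio scaling moved the median of all genes by at most 0.06. Implied fragments were few for Sox1, with as few as 6.00 in a library. Some tested genes had fewer in a library. Sox21 had 4.81 in the first CDGC1 library, and Neurod1 had 0.825 in the second CDGC6 library, where the interval was wide. Pax6 was listed at 0 in both CDGC1 libraries.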

Other observations

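Of the neurofilament genes, Nefl and Nefm were higher in CDGC1 than in control, and Nefh was listed at 0. These genes were chosen after their values were seen. Nefl, the light chain, had 185 and 135 FPKM in CDGC1, 77.0 and 65.5 in CDGC6, 36.4 and 39.7 in Dnd1-KD, and 63.5 and 69.4 in control. Nefm, the medium chain, had 16.2 and 11.6 FPKM in CDGC1, 1.20 and 0.787 in CDGC6, 1.23 and 1.69 in Dnd1-KD, and 3.71 and 3.71 in control. Against control, limma gave 1.24 ± 0.16 for Nefl (adjusted p = 0.00134) and 1.64 ± 0.19 for Nefm (adjusted p = 0.000832) in CDGC1. The 0 of the heavy chain Nefh there can be a failed estimate. Synaptotagmin Syt1 and the adhesion gene Ncam1, both of neurons, were also higher in CDGC1, with 2.71 and 3.64 FPKM in CDGC1 against 0.470 and 1.39 in control (1.31, adjusted p = 0.00238, and 0.95, adjusted p = 0.000931). Uchl1, a ubiquitin hydrolase abundant in neurons and germ cells, was lower in CDGC1, with 11.1 FPKM against 64.6 in control (−2.44, adjusted p = 4.28e-05), and higher in Dnd1-KD, with 94.5 against 64.6 in control (0.54, adjusted p = 0.0221).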
